A study of Homo sapiens with 6 samples.

Results

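Kinesins are motor proteins that use ATP to move along microtubules or to shorten them, and the human genome encodes them in a family of genes named KIF. The genes described here were the protein-coding genes whose symbol was KIF with a number and an optional letter, or KIFC with a number, 42 of 58395 genes in the deposited table. They were measured in 786-O cells, a human renal carcinoma line kept in RPMI-1640 with serum, by RNA sequencing of 3 libraries in which PLOD2 (lysyl hydroxylase 2, which modifies collagen lysines) was the target named in the label (sgPLOD2) and 3 libraries labelled as the control (sgControl), where sg is the usual mark of a single guide RNA for CRISPR. The labels give neither separate cultures nor a clone or pool for the targeted cells. The p-values thus reflect library-to-library spread alone, and that spread may be technical.

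Values were FPKM, fragments scaled to gene length and to the fragments of the library. The level of a gene can thus be set beside that of another, and depth per library is unknown. The libraries summed to 229485 to 268612 FPKM. PLOD2 had 5.98, 10.1 and 6.64 FPKM in sgPLOD2 libraries, against 26.8, 25.7 and 21.5 FPKM in sgControl libraries. The groups did not overlap (limma log2 fold change -1.61 ± 0.18, SE; adjusted p = 0.000509; 2-sided exact permutation p = 0.1, the smallest that 3 libraries against 3 allow). Of the renal carcinoma markers, PAX8, VIM, KRT8 and KRT18 were above 20 FPKM in every library, whereas NDUFA4L2 stayed under 0.3 FPKM. CA12 averaged 9.65 FPKM in sgPLOD2 and 31.9 FPKM in sgControl (limma log2 fold change -1.63, adjusted p = 4.80e-05), PAX2 and VIM were lower too (-0.33 and -0.36), and CDH2 was higher (0.57). MME averaged 0.871 FPKM in sgPLOD2 and 0.182 FPKM in sgControl and was not tested. Leukocyte markers summed to 0.218 to 0.487 FPKM in sgPLOD2 and 0.105 to 0.157 FPKM in sgControl. Endothelial markers summed to 0.0491 to 0.102 FPKM in sgPLOD2 and 0.0227 to 0.0328 FPKM in sgControl, and fibroblast markers to 0.310 to 0.463 FPKM in sgPLOD2 and 0.263 to 0.506 FPKM in sgControl, with CD3E, VWF and DCN at 0 throughout. The groups also differed along chromosomes, with a median log2 fold change of 0.54 on chromosome 14 and -0.25 on chromosome 16. The guide and a difference in cell population therefore cannot be told apart in this design.

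Kinesins fall by role into 3 sets used here. Mitotic kinesins (15 genes) build the spindle, align chromosomes or cut the daughter cells apart, and most of them are known to be transcribed mainly in G2 and M phase. Transport kinesins (15 genes) carry vesicles, organelles or ciliary cargo through the cell in all phases. The remaining 12 genes act at cilia and centrioles, in signalling, or have less defined roles. In bulk RNA, fewer cells in a phase and less RNA per cell cannot be told apart.

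Many G2/M genes are known to carry a CHR element (cell cycle genes homology region) near their start, often downstream of CCAAT boxes, which the factor NF-Y binds. Promoters were therefore searched for the hexamers TTTGAA and TTCGAA and for CCAAT, each on both strands, in RefSeq windows of 300 bases (GRCh38.p14; 250 before the transcript start and 50 from it) that matched 34 of the 42 kinesins. CCAAT can share bases with the hexamer where one runs into the other. A CHR hexamer lay in a window of 11 of 15 mitotic kinesins, 1 of 11 transport kinesins and 1 of 8 others, against 19.5% of all 27305 genes with a window and 14.9% of those tested for expression. In all 11 mitotic kinesins it lay between -60 and +30 from a start, a stretch that held it in 5.87% of all genes. CCAAT occurred in 11 of 15 mitotic kinesins, 4 of 11 transport kinesins and 3 of 8 others, against 39.7% of all genes. Mitotic kinesins without either motif in these windows were KIF2A, KIF2B and KIF2C.

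**Figure D1:**
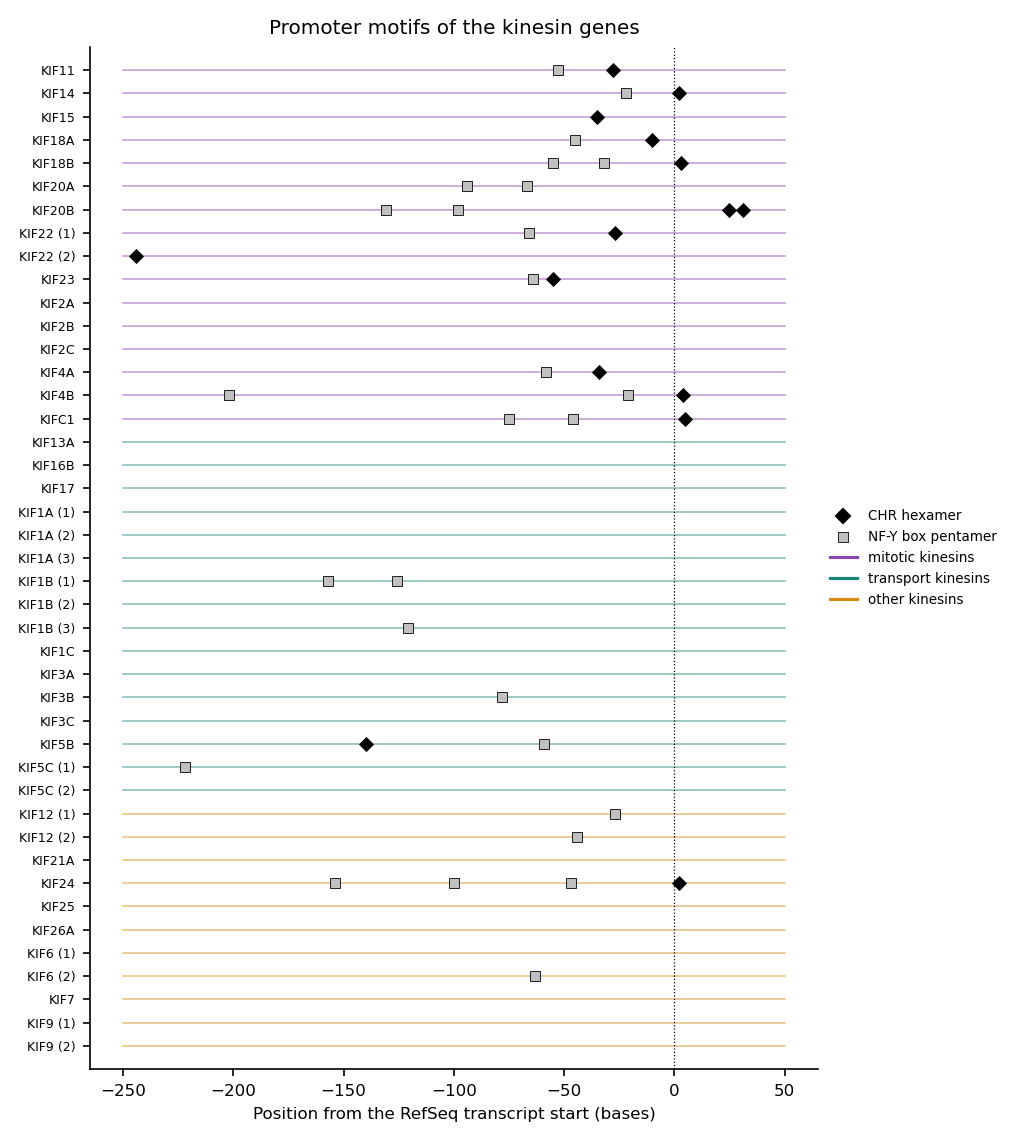
Positions of the CHR hexamer (diamonds) and the CCAAT pentamer bound by NF-Y (squares) in promoter windows of 34 kinesins, in bases from the RefSeq transcript start. Each line is 1 window, coloured by role; a number in brackets marks windows of a gene with several starts. Diamonds cluster within 60 bases of the start in mitotic kinesins, apart from 1 at -244 in the second window of KIF22, and KIF5B and KIF24 hold the others.

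The stretch from 100 bases before the start to 30 bases from it is printed for members that the results turn on, with CHR hexamers and CCAAT boxes of either strand in capitals. The first 6 are mitotic kinesins whose mRNA was higher in sgPLOD2, at chrX:70290004-70290133 (plus strand), chr15:69414249-69414378 (plus), chr3:44761694-44761823 (plus), chr10:92593030-92593159 (plus), chr1:200620722-200620851 (minus) and chr6:33391723-33391852 (plus).
KIF4A: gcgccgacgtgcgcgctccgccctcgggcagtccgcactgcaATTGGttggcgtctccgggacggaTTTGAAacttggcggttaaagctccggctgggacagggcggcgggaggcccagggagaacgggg
KIF23: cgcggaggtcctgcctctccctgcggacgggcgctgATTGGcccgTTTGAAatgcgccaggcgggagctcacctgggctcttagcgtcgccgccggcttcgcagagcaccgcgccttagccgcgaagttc
KIF15: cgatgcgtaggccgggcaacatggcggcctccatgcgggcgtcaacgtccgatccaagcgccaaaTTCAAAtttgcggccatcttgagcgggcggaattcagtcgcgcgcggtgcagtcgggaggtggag
KIF11: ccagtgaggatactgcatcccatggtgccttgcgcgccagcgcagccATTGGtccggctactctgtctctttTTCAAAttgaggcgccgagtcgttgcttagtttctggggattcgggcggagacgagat
KIF14: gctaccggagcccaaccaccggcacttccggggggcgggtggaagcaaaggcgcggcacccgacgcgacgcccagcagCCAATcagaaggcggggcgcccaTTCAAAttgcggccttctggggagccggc
KIFC1: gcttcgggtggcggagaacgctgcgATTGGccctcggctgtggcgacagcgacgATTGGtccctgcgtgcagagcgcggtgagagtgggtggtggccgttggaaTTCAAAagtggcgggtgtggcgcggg
KIF22, a mitotic kinesin that was not called, held both motifs as well, at the more upstream of its starts (chr16:29790651-29790780, plus), while KIF20A, which was called higher, held a pair of CCAAT boxes and no hexamer (chr5:138179012-138179141, plus).
KIF22: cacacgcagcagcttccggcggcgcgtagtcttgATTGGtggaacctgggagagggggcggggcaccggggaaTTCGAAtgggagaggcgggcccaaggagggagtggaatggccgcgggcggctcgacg
KIF20A: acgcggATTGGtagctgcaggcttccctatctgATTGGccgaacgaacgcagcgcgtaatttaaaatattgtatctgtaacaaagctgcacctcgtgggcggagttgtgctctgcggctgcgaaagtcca
For contrast, the centriolar kinesin KIF24 held the hexamer at its start (chr9:34329239-34329368, minus), the transport kinesin KIF5B held it at -140, outside the printed stretch (chr10:32056396-32056525, minus), and KIF13A (chr6:17987606-17987735, minus) and KIF7 (chr15:89655438-89655567, minus), the first higher and the second lower in sgPLOD2, held neither motif in the window.
KIF24: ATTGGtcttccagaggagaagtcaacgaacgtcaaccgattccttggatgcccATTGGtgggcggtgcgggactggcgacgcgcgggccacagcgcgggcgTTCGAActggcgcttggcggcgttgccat
KIF5B: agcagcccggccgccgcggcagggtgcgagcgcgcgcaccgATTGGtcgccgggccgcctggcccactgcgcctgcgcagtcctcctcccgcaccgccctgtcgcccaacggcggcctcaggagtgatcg
KIF13A: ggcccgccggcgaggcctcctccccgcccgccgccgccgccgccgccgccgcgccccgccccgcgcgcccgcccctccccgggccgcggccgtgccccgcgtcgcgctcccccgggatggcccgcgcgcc
KIF7: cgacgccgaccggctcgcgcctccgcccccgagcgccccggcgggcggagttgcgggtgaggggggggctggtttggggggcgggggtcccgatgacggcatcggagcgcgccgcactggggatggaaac
A match is a string of letters and does not show that a factor binds there. Across the 342 tested genes with a hexamer between -60 and +30, 41.5% were called higher and 16.7% lower in sgPLOD2. These genes include 10 mitotic kinesins. Over all 1162 tested genes with a hexamer anywhere in the window, the shares were close to that, 39.4% higher and 18.9% lower. Among the 6663 tested genes with none in the window, 29.8% were called higher and 24.0% lower. The part of the motif, its position or GC content in these shares was not tested.

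Mitotic kinesin mRNAs were mostly higher in sgPLOD2 cells, transport kinesins went both ways, and the cilium-linked KIF7 had the largest fold change of the 27 kinesins tested. A gene was tested where it averaged at least 1 FPKM over the 6 libraries (27 of 42 kinesins), on log2(FPKM + 1) with limma over 10469 genes. It is called higher or lower where the Benjamini-Hochberg adjusted p was under 0.05. Of 13 tested mitotic kinesins, 11 were called higher and 0 lower, against 29.5% of all tested genes called higher, 23.5% called lower and 52.9% called in either direction (1 mitotic kinesin, KIF22, had an unadjusted p of 0.0484 on the lower side). Of 10 tested transport kinesins, 6 were called higher and 2 lower, and of 4 others, 2 and 2. The median log2 fold change was 0.66 for mitotic and 0.37 for transport kinesins, beside 0.06 for all tested genes. These sets differ in median transcript GC content (42.3%, 51.1% and 49.3%), with which fold changes ran, as described below. The difference between both sets was not tested. Without sgPLOD2 replicate 2, 7 mitotic and 3 transport kinesins were called higher, and without sgPLOD2 replicate 3, 3 transport kinesins. Of all 10469 tested genes, 2307 and 2569 were called higher in these runs.

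The filter let 5 members through on the level of a single group: KIF14, KIF26B and KIF13B in sgPLOD2 and KIF7 and KIF12 in sgControl, so these had to differ. Among the 22 with a mean of at least 1 FPKM in both groups, 10 of 12 mitotic kinesins were higher and 0 lower, 5 of 9 transport kinesins were higher and 2 lower, and KIF24, the sole other member, was higher. Of these 22, every sgPLOD2 library exceeded every sgControl library in 9 of 12 mitotic and 6 of 9 transport kinesins, against 34.7% of all tested genes. The reverse held for 1 mitotic and 2 transport kinesins, against 28% of all tested genes. Both shares are over a wider set, since all tested genes include those that passed through 1 group. Summed over all 15 mitotic kinesins, the level was 290.0, 294 and 292 FPKM in sgPLOD2, against 194, 214 and 207 FPKM in sgControl. The 15 transport kinesins summed to 99.5, 112 and 111 FPKM in sgPLOD2, against 84.4, 98.6 and 90.5 FPKM in sgControl. The mitotic sums were apart by far more than their spread, and the transport sums were close to meeting. Single genes weigh heavily in such sums. The mitotic KIF4A averaged 59.2 FPKM in sgPLOD2 and 17.4 FPKM in sgControl. The transport kinesin KIF1C, which was not called, averaged 44.8 FPKM in sgPLOD2 and 38.3 FPKM in sgControl.

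**Figure D2:**
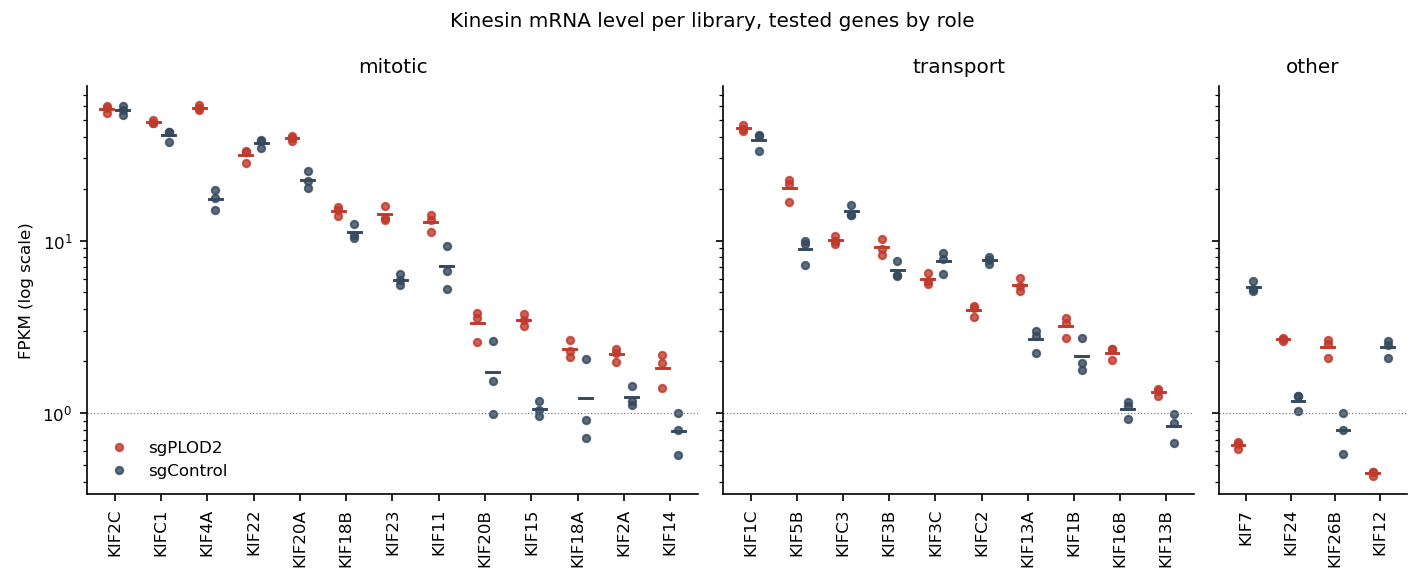
Level of the 27 tested kinesins in FPKM on a log axis, by role, with each library as a point and each group mean as a bar (red, sgPLOD2; dark blue, sgControl; n = 3 each). KIF4A shows the widest gap among the well expressed members (59.2 FPKM in sgPLOD2 against 17.4 FPKM in sgControl), and KIF7 and KIF12 are the members far lower in sgPLOD2.

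**Figure D3:**
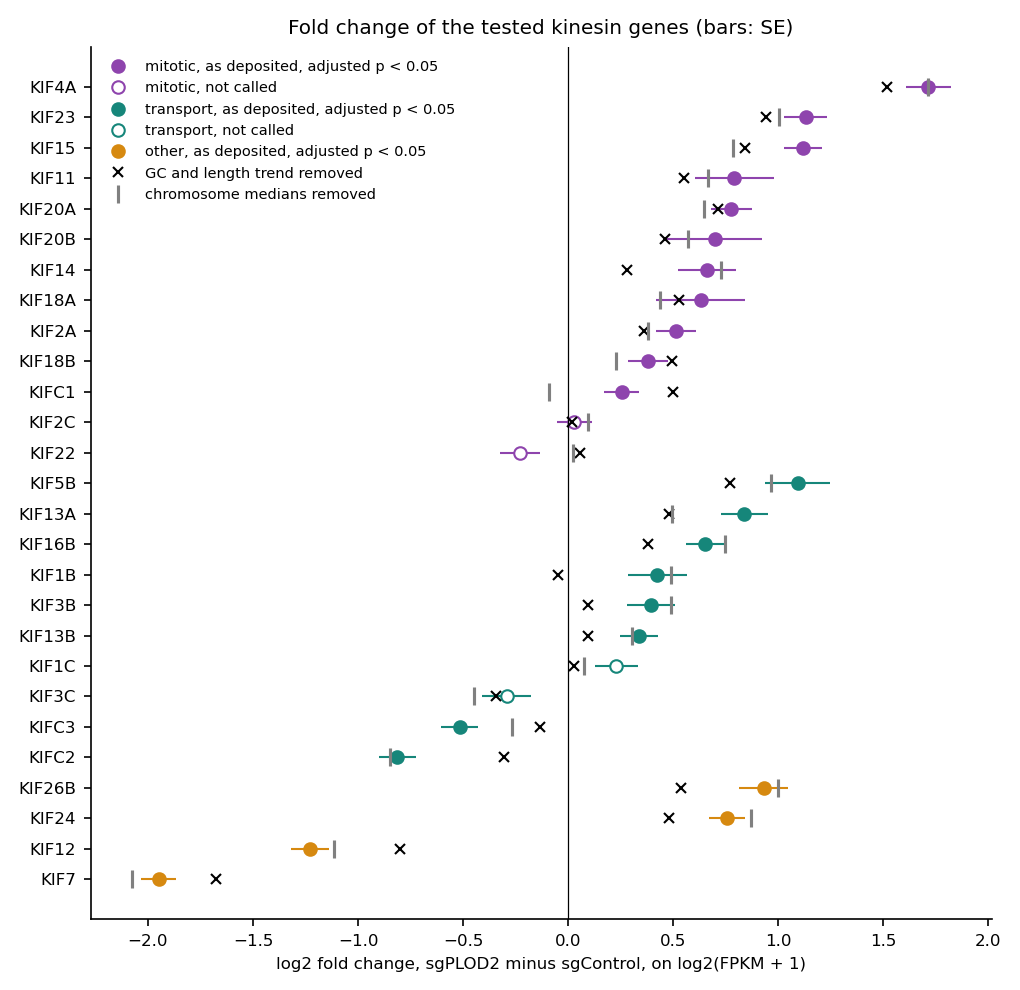
log2 fold change of each tested kinesin, sgPLOD2 minus sgControl, with its standard error, ordered within each role. Filled circles are called and open ones are not; crosses and ticks give the value after removal of a GC and length trend or of chromosome medians. KIF4A leads the mitotic set at 1.71, and KIF1B has the cross that falls to the other side of 0 among called members (-0.048), as KIFC1 has the tick (-0.091).

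Of the chromokinesins, which bind chromosome arms, KIF4A was higher and KIF22 was not called. KIF4A (ENSG00000090889; GRCh38, chromosome X, 70290104 to 70420886, plus strand), which also organises the spindle midzone, had 59.0, 61.6 and 57.0 FPKM in sgPLOD2 libraries, against 15.1, 19.6 and 17.6 FPKM in sgControl libraries. That was 3.40-fold, with no overlap (log2 fold change 1.71 ± 0.11, SE; limma adjusted p = 3.47e-05). Chromosome X as a whole had a median log2 fold change of 0.00. KIF4A shares an exon region with PDZD11 on the opposite strand, which was higher too (0.96), and no source gives the strand setting of the counting, so reads of the 2 genes could be mixed. Its retrocopy KIF4B, 95.2% identical over 4359 aligned bases, had 0.313, 0.324 and 0.263 FPKM in sgPLOD2, against 0.0412, 0.103 and 0.0711 FPKM in sgControl. Such reads could stem from KIF4A. KIF22 (Kid), which pushes chromosomes away from the poles, had 33.2, 28.1 and 32.8 FPKM in sgPLOD2, against 34.3, 37.7 and 38.6 FPKM in sgControl. All 3 sgPLOD2 libraries were below the sgControl ones, but the limma adjusted p was 0.0820, and it was 0.0418 with median-of-ratios scaling and 0.0468 without sgControl replicate 1.

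The motors that push the spindle poles apart rose. KIF11 (Eg5), the motor that slides antiparallel microtubules, had 11.2, 14 and 13.1 FPKM in sgPLOD2, against 9.33, 6.68 and 5.25 FPKM in sgControl (log2 fold change 0.79 ± 0.19, adjusted p = 0.0104). The groups were close, with sgControl replicate 1 nearest to sgPLOD2. KIF15, which can keep the spindle bipolar when KIF11 fails, had 3.19, 3.74 and 3.48 FPKM in sgPLOD2, against 1.17, 0.959 and 1.04 FPKM in sgControl (3.28-fold; 1.12 ± 0.09, adjusted p = 0.000120). KIFC1 (HSET), the minus-end motor that draws poles together and clusters extra centrosomes, had 48.3, 48.3 and 50.02 FPKM in sgPLOD2, against 37.5, 42.7 and 42.4 FPKM in sgControl. Its shift of 1.20-fold was called (0.25 ± 0.08, adjusted p = 0.0358), but it was not called in 8 of 18 alternatives. With chromosome medians removed it was -0.091 (adjusted p = 0.397), chromosome 6 having a median of 0.35. After detrending on GC and length it was 0.50 (adjusted p = 0.00306).

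Kinesins that shorten microtubules or dampen their growth differed among themselves. KIF2C (MCAK), which corrects faulty kinetochore attachments, was the most abundant kinesin of all over the 6 libraries. It had 60.2, 54.9 and 59.0 FPKM in sgPLOD2, against 53.3, 57.2 and 60.3 FPKM in sgControl, and was not called (adjusted p = 0.795; 58.1 ± 2.78 FPKM in sgPLOD2 and 56.9 ± 3.53 FPKM in sgControl, SD, n = 3 each). Its sign turned with median-of-ratios scaling (-0.038) and without sgControl replicate 1 (-0.018). KIF2A, which acts at spindle poles and also in neurons, had 1.99, 2.23 and 2.36 FPKM in sgPLOD2, against 1.11, 1.43 and 1.17 FPKM in sgControl (0.51 ± 0.10, adjusted p = 0.00382). Its exons overlap those of IPO11 on the same strand, which was also higher (0.57). KIF2B was listed at 0 in every library.

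KIF18A, which holds chromosomes at the spindle equator, had 2.099, 2.65 and 2.29 FPKM in sgPLOD2, against 2.06, 0.916 and 0.711 FPKM in sgControl. One sgControl library nearly reached the sgPLOD2 ones, and the call (0.63 ± 0.21, adjusted p = 0.0402) was lost in 11 of 17 alternatives. Without sgControl replicate 1 the log2 fold change was 0.88 (adjusted p = 0.00103). KIF18B, which shortens astral microtubules, had 13.98, 15.6 and 15.0 FPKM in sgPLOD2, against 10.4, 12.4 and 10.8 FPKM in sgControl (0.38 ± 0.10, adjusted p = 0.0135). The call of KIF18B was lost without sgPLOD2 replicate 2 (0.0546) and with chromosome medians removed (0.0865).

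Kinesins of cytokinesis include KIF23, KIF20A, KIF20B and KIF14. KIF23 (MKLP1; chromosome 15, 69414246 to 69448427), the motor of the centralspindlin complex, had 13.5, 15.9 and 13.2 FPKM in sgPLOD2, against 5.88, 6.39 and 5.52 FPKM in sgControl (2.39-fold; 1.13 ± 0.10, adjusted p = 0.000193). Its partner RACGAP1, named here as the other subunit of that complex after its values had been seen, had 29.1 ± 1.47 FPKM in sgPLOD2 and 24.8 ± 3.08 FPKM in sgControl and was not called (adjusted p = 0.107). KIF20A (MKLP2), which brings Aurora B to the midzone, had 39.1, 40.5 and 38.0 FPKM in sgPLOD2, against 20.2, 25.2 and 22.3 FPKM in sgControl (1.74-fold; 0.78 ± 0.10, adjusted p = 0.000779). Opposite-strand genes that overlap it, BRD8 and CDC23, rose by 0.47 and 0.42.

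KIF20B had 2.57, 3.82 and 3.55 FPKM in sgPLOD2, against 2.63, 1.54 and 0.990 FPKM in sgControl. Its groups overlapped through sgControl replicate 1, and its call (0.70 ± 0.23, adjusted p = 0.0354) was lost in 9 of 17 alternatives. KIF14, which binds citron kinase at the midbody, had 1.39, 2.16 and 1.95 FPKM in sgPLOD2, against 0.994, 0.794 and 0.573 FPKM in sgControl (0.66 ± 0.14, adjusted p = 0.00637, or 0.139 after detrending on GC and length). CENPE, the kinetochore motor whose symbol the rule does not match, had 2.18 ± 0.46 FPKM in sgPLOD2 and 0.692 ± 0.453 FPKM in sgControl (SD, n = 3 each; 0.93, adjusted p = 0.00694). STARD9, also a kinesin by another name, had 0.633 ± 0.117 FPKM in sgPLOD2 and 0.354 ± 0.121 FPKM in sgControl and was not tested.

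Partner lists are read against the shares of all tested genes, 29.5% called higher and 23.5% called lower. Of 25 tested spindle, kinetochore and midzone partners, 12 were called higher and 1 lower, above the first share and below the second, with a median log2 fold change of 0.28 beside 0.06 for all tested genes. NDC80, of the kinetochore, had 12.6 ± 0.48 FPKM in sgPLOD2 and 4.88 ± 0.92 FPKM in sgControl, the microtubule polymerase gene CKAP5 31.5 ± 2.73 FPKM in sgPLOD2 and 12.0 ± 2.06 FPKM in sgControl, and the midbody scaffold gene ANLN 46.2 ± 5.03 FPKM in sgPLOD2 and 19.0 ± 3.91 FPKM in sgControl (SD, n = 3 each). The kinase gene PLK1 fell (-0.53, adjusted p = 0.0112). Of 19 proliferation markers, 10 were higher and 2 lower, with a median of 0.33. CCNA2, MCM6 and TOP2A rose by 1.14, 0.78 and 1.31, while UBE2C and the cell cycle inhibitor CDKN1A fell by 0.92 and 2.03. Of 17 transcription regulators of the cell cycle, 8 were higher and 5 lower. E2F3, E2F8 and TFDP2 rose by 1.03, 0.84 and 0.46, and E2F1 and E2F4 fell by 0.74 and 0.83. MYBL2, the B-MYB that binds CHR promoters with its partners, fell by 0.66. Further members were picked out after their values had been seen. LIN52 and LIN54 rose by 0.82 and 0.33, and LIN9 and LIN37 fell by 0.29 and 0.53. FOXM1 was higher (0.95, limma adjusted p = 0.0345), with 34.0, 14.5 and 15.0 FPKM in sgPLOD2, against 8.37, 11.0 and 9.58 FPKM in sgControl. The part of cell cycle phase in the kinesin levels was not tested.

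Of the transport kinesins, the kinesin-1 heavy chain KIF5B, which moves mitochondria, vesicles and mRNAs, had the largest log2 fold change among the 10 tested. KIF5B (chromosome 10, 32009015 to 32056425, minus strand) had 16.7, 22.4 and 21.4 FPKM in sgPLOD2, against 10.0, 9.60 and 7.21 FPKM in sgControl (2.26-fold; 1.09 ± 0.15, adjusted p = 0.00122). The groups did not overlap, and the call held in all 18 alternatives. Its neuronal paralogs KIF5A and KIF5C stayed under 0.04 FPKM in every library. The light chain genes, which bind cargo for kinesin-1 and were picked out after their values had been seen, went apart. KLC1 was higher (0.55), KLC2 and KLC3 were lower (-0.41 and -0.38), and KLC4 was not called (adjusted p = 0.412).

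Kinesin-3 motors carry endosomes and vesicles. KIF13A, a motor of recycling endosomes, had 5.13, 6.05 and 5.48 FPKM in sgPLOD2, against 2.23, 2.98 and 2.80 FPKM in sgControl (0.84 ± 0.11, adjusted p = 0.000971). KIF16B, a motor of early endosomes, had 2.03, 2.34 and 2.35 FPKM in sgPLOD2, against 1.10, 1.15 and 0.924 FPKM in sgControl (0.65 ± 0.09, adjusted p = 0.00111). Both groups stood apart in these 2 genes, and after detrending on GC and length the log2 fold changes were 0.48 for KIF13A and 0.38 for KIF16B, both still called. For KIF13A the value was 0.49 with chromosome medians removed. KIF13B had 1.26, 1.37 and 1.34 FPKM in sgPLOD2, against 0.674, 0.983 and 0.874 FPKM in sgControl (0.34 ± 0.09, adjusted p = 0.0178). It was not called in 4 of 17 alternatives, with an adjusted p of 0.0597 without sgPLOD2 replicate 2, 0.0538 without sgPLOD2 replicate 3, 0.170 with quantile normalization and 0.419 after detrending on GC and length. KIF1B, which carries mitochondria and vesicles, had 2.72, 3.54 and 3.35 FPKM in sgPLOD2, against 1.77, 2.72 and 1.95 FPKM in sgControl. Its groups were close to touching, and the call (0.42 ± 0.14, adjusted p = 0.0368) was lost in 8 of 17 alternatives. KIF1C, the most abundant transport kinesin, had 43.1, 44.6 and 46.8 FPKM in sgPLOD2, against 33.3, 40.6 and 40.8 FPKM in sgControl, and was not called (adjusted p = 0.0965, or 0.0237 with quantile normalization and 0.0494 under TPM). KIF1A, a neuronal motor, was listed at 0 throughout.

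Kinesin-2 motors drive transport into cilia as KIF3A with KIF3B, or carry vesicles with KIF3C in the second place. KIF3B had 8.27, 10.2 and 8.94 FPKM in sgPLOD2, against 6.25, 7.62 and 6.28 FPKM in sgControl (0.40 ± 0.11, adjusted p = 0.0234). That call was lost in 4 of 18 alternatives, with an adjusted p of 0.0749 without sgControl replicate 3, 0.0846 without sgPLOD2 replicate 2, 0.0587 without sgPLOD2 replicate 3 and 0.522 after detrending on GC and length. KIF3A was under the filter, at 0.972, 1.08 and 1.10 FPKM in sgPLOD2, against 0.516, 0.474 and 0.353 FPKM in sgControl, with no overlap. KIF3C had 5.62, 5.86 and 6.49 FPKM in sgPLOD2, against 6.43, 8.53 and 7.81 FPKM in sgControl, which overlapped (-0.29 ± 0.12, adjusted p = 0.0701). It was called lower in 5 of 18 alternatives. KIF17 did not exceed 0.0251 FPKM.

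The minus-end motors outside the spindle fell, the pair KIFC2 and KIFC3. KIFC2 (chromosome 8, 144466043 to 144474202), known from mouse neurons, had 4.05, 3.62 and 4.17 FPKM in sgPLOD2, against 8.03, 7.74 and 7.30 FPKM in sgControl (0.513-fold; -0.81 ± 0.09, adjusted p = 0.000413). After detrending on GC and length its log2 fold change was -0.31 (adjusted p = 0.0265). KIFC3, which acts at cell-cell junctions and the Golgi, had 9.58, 10.6 and 9.88 FPKM in sgPLOD2, against 14.1, 16.1 and 14.1 FPKM in sgControl (-0.52 ± 0.09, adjusted p = 0.00294, or 0.259 after detrending on GC and length). Neither gene had overlapping groups.

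Among adaptors and light chains, 11 of 25 tested genes were higher and 5 lower, with a median log2 fold change of 0.21, against 29.5% of all tested genes higher and 23.5% lower. The scaffold gene MAPK8IP1 (JIP1) had 5.34 ± 0.26 FPKM in sgPLOD2 and 2.29 ± 0.15 FPKM in sgControl (SD, n = 3 each), and the mitochondrial adaptor genes TRAK1 and TRAK2 rose by 0.56 and 0.86. RHOT2, a mitochondrial GTPase gene, and MAPK8IP3, a scaffold gene, fell by 0.72 and 0.47. In the opposing motor, cytoplasmic dynein with dynactin and its cofactors, 5 of 24 tested genes were higher and 4 lower, both below the shares of all tested genes, with a median of 0.03. The dynein heavy chain gene DYNC1H1 had 17.3 ± 2.21 FPKM in sgPLOD2 and 6.70 ± 1.77 FPKM in sgControl (SD, n = 3 each), on chromosome 14, which had a median of 0.54. PAFAH1B1 and DYNC1LI1 rose by 0.52 and 0.64, and DYNLRB1, DYNLT1 and NDEL1 fell by 0.69, 0.52 and 0.60.

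The remaining kinesins held the largest falls. KIF7 (ENSG00000166813; chromosome 15, 89608789 to 89655467, minus strand), which organises the ciliary tip for Hedgehog signalling, had 0.620, 0.679 and 0.661 FPKM in sgPLOD2, against 5.13, 5.82 and 5.22 FPKM in sgControl. It stood at 12.1% of the sgControl level (log2 fold change -1.95 ± 0.08, limma adjusted p = 6.29e-06). The opposite-strand neighbour TICRR, which shares exon positions with KIF7, was higher (0.52). KIF12 (chromosome 9, 114086126 to 114099291, minus strand), tied to cystic kidney disease in mouse, had 0.457, 0.432 and 0.454 FPKM in sgPLOD2, against 2.61, 2.49 and 2.097 FPKM in sgControl (18.7% of the sgControl level; -1.23 ± 0.09, adjusted p = 7.34e-05). In both genes the groups were far apart against the spread of either.

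KIF24 and KIF26B went the other way. KIF24, which trims centriolar microtubules and restrains cilium formation, had 2.72, 2.68 and 2.63 FPKM in sgPLOD2, against 1.25, 1.26 and 1.03 FPKM in sgControl (2.27-fold; 0.76 ± 0.08, adjusted p = 0.000457). Its exons overlap those of UBAP1 on the opposite strand, which averaged 21.2 FPKM in sgPLOD2 and 15.9 FPKM in sgControl. UBAP1 was higher too (0.41), and reads of the 2 genes could be mixed. KIF26B, which in mouse is needed for kidney formation, had 2.09, 2.65 and 2.50 FPKM in sgPLOD2, against 0.579, 1.00 and 0.797 FPKM in sgControl (3.04-fold; 0.93 ± 0.12, adjusted p = 0.000791). After detrending on GC and length, the log2 fold changes were 0.48 for KIF24, 0.54 for KIF26B and -0.80 for KIF12, all still called. KIF26B and KIF12 passed the filter through 1 group, so their kept calls say nothing of stability. KIF21A, KIF9, KIF27 and KIF26A were under the filter, with means over the 6 libraries of 0.908, 0.324, 0.161 and 0.0730 FPKM. KIF6, KIF21B and KIF25 stayed under 0.02 FPKM and KIF19 was listed at 0.

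The authors' deposited table, which compared the same libraries, gave an adjusted p under 0.05 to 24 of the 42 members, 19 higher and 5 lower. It gave no adjusted p to 4 members. Of the 22870 genes with an adjusted p in that table, 18.5% were called higher and 17% lower. In the authors' deposited table KIF7 and KIF12 had log2 fold changes of -3.14 and -2.50, larger than on the log2(FPKM + 1) scale, where the added 1 shrinks changes of low genes. KIF18B, KIFC1 and KIF3B passed in limma and not in the authors' deposited table, which in turn passed KIF3C (lower) and, among members under the filter used here, KIF3A, KIF4B and KIF26A (higher).

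Fold changes of the kinesins ran with the GC content of their longest GENCODE transcript. The 19 members called higher had 34.2% to 58.4% GC and the 4 called lower had 63.5% to 68.1%. Members that passed the filter through 1 group, and so had to differ, enter these ranges and the correlations that follow. They are KIF7 and KIF12 among the lower, and KIF14, KIF26B and KIF13B among the higher. Over the 27 tested members, which share the same 6 libraries, Pearson's r between GC content and log2 fold change was -0.76 and Spearman's rho -0.76. Within roles, r was -0.96 over 10 transport and -0.51 over 13 mitotic kinesins, and it was -0.30 over 10457 tested genes. These are correlations across genes, which are not independent replicates. After detrending, in which a smooth surface of transcript GC and length was subtracted from the fold changes, the median log2 fold change was 0.50 for mitotic kinesins and 0.061 for transport kinesins. The calls were then 8 higher and 0 lower among mitotic and 3 higher and 2 lower among transport kinesins. Of all 10469 tested genes, 2601 were then called higher and 2060 lower. KIF22, not called, was then at 0.056 and KIF1B at -0.048.

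**Figure D4:**
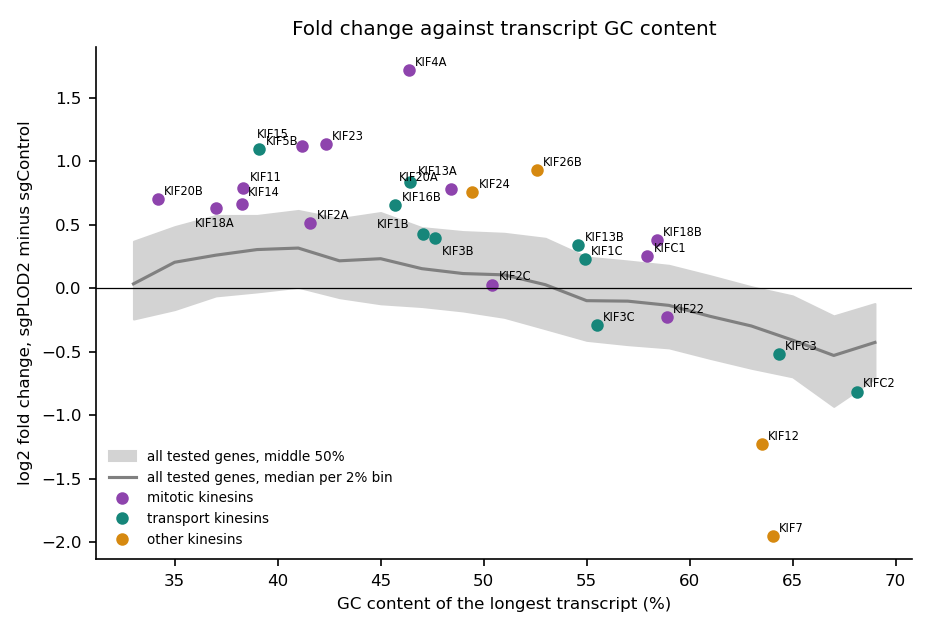
log2 fold change (sgPLOD2 minus sgControl) of the 27 tested kinesins against GC content of the longest transcript in percent, coloured by role, over the median and interquartile range of all tested genes per bin of GC content. KIF4A at 46.4% GC and KIF7 at 64.1% GC lie farthest from the grey band, while KIFC3 lies inside it and KIFC2 at its lower edge.

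Within the sgControl group, replicate 1 stood apart for some mitotic kinesins. In replicate 1, KIF18A, KIF20B and KIF11, with 37.0%, 34.2% and 38.3% GC, were above the mean of replicates 2 and 3 by 0.76, 0.69 and 0.58 on the log2 scale. Replicate 1 was the lowest sgControl library for 16 of the 27 tested members and the highest for 8. Over the 13 mitotic kinesins, r between this deviation and GC content was -0.75, against -0.13 over the 10 transport kinesins. It was -0.53 over the 27 tested kinesins and -0.03 over all tested genes. Median GC content was 42.3% for tested mitotic and 51.1% for tested transport kinesins. Beyond the rule, replicate 1 was also high for CENPE (1.21, against 0.487 and 0.377 FPKM) and NUSAP1 (38.2, against 20.3 and 18.6 FPKM). For MKI67 it was low (3.08, against 11.3 and 8.55 FPKM). These 3 were picked out after their values had been seen. Without sgControl replicate 1, KIF11 and KIF20B had log2 fold changes of 0.98 and 0.93. The part of GC content in the group differences beyond the trend removal was not tested.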

How the data were processed

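RNA was extracted with Trizol and libraries followed a standard Illumina protocol, per the labels' protocols. CASAVA, HISAT2 2.1.0, StringTie 1.3.4 and GRCh38 are named without roles in the submitters' processing notes. For the counting, neither tool nor strand setting is given in the sources used here. Per the file headers, the authors deposited 1 FPKM value per gene and library, with no recorded scaling between libraries. The same deposited table held the authors' comparison, with a mean normalized count (a signal averaged over libraries), log2 fold changes and their errors, a score from the authors' test, and p-values.

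The test, limma 3.58.1 under R 4.3.3, ran on log2(FPKM + 1) (intensity trend, 2-sided, Benjamini-Hochberg over the 10469 genes averaging 1 FPKM or more, threshold 0.05) and was checked on simulated data. Fold changes are sgPLOD2 minus sgControl. Depth per library is unknown, so no counting interval is given. Of 58395 identifiers, 58275 were in GENCODE 29 (all 42 members), which gave chromosome, overlaps, GC content and length; 27 members had the gene start of the table. Coordinates are the table's. Transcripts of members were compared with blastn 2.17.0. Promoters came from RefSeq.

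Per-library values are given for called members and the 4 highest of each role, and up to 3 genes per direction of each other list, of which some are not reported here. Members, roles and lists were chosen with earlier results of these data known. Alternatives were other pseudocounts, filters, scalings and variance models, a replicate block, another role assignment, subtraction of chromosome medians, detrending on GC and length (mgcv 1.9.3), and leaving out each library. Counts under the other role assignment are not given here. The permutation test used scipy 1.17.1.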

Additional observations from a re-analysis of the deposited data

How the results depend on the processing

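Of the 23 called kinesins, 14 were called in every alternative in which they could be tested (KIF4A, KIF23, KIF15, KIF11, KIF20A, KIF2A, KIF5B, KIF13A, KIF16B, KIFC2, KIF7, KIF12, KIF24 and KIF26B) and 9 were lost in at least 1. For KIF7, KIF12 and KIF26B, which passed the 1 FPKM minimum through 1 group, such repeats say nothing of stability. Leaving out 1 library gave 7 to 10 mitotic kinesins called higher and 0 to 1 lower, 3 to 6 transport kinesins higher and 2 to 3 lower, and medians of 0.50 to 0.78 (mitotic) and 0.30 to 0.44 (transport). A minimum of 5 FPKM, which leaves fewer genes to test, gave 6 mitotic and 2 transport kinesins higher, 0 others in either direction and a transport median of -0.031. Medians of mitotic and transport kinesins were 0.87 and 0.51 with a pseudocount of 0.1 and 0.99 and 0.60 under TPM, which moves the median of all tested genes to 0.20 and the share of higher calls to 66.8%, against 55.7% as deposited (49.9% with median-of-ratios or quantile scaling, 45.2% at 5 FPKM). The mitotic median was 0.49 with quantile normalization and 0.50 after detrending on GC and length, where 3 transport kinesins were higher (median 0.061). In that detrended run, 2601 of all 10469 tested genes were higher. Median-of-ratios scaling called 1 mitotic kinesin lower (KIF22), and removal of chromosome medians called 7 higher. Signs turned for KIF2C (-0.038 with median-of-ratios scaling, from -0.018 without sgControl replicate 1 to 0.070 without sgControl replicate 3), KIF22 (0.056 after detrending on GC and length, 0.021 with chromosome medians removed), KIF1B (-0.048 after detrending on GC and length) and KIFC1 (-0.091 with chromosome medians removed). The causes were not tested.

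Replicate numbers were not shown to pair the libraries, since deviations of same-numbered libraries correlated at 0.01, 0.14 and -0.05 and sgPLOD2 replicate 1 correlated best with sgControl replicate 3 (0.14). With the replicate number as a block, 8 mitotic kinesins were called higher and the other counts stayed at 0, 6, 2, 2 and 2. Depth per library is unknown, but the authors' mean normalized count speaks to the 15 members under 1 FPKM. That count was 1246 for KIF21A, 693 for KIF3A, 262 for KIF9, 113 for KIF27, 109 for KIF4B and 65.5 for KIF26A. For the rest of those members it was at most 20.9 (KIF5C), which limits what can be said of them.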
